A study of Mus musculus with 24 samples.

Results

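The comparison described here asks how the transcriptional response of mouse colonic organoids to induction of BRAFV600E differed between a culture with and a culture without a heterozygous p53R172H allele. It is the response of the Braf p53 culture (on minus off) less the response of the Braf culture (on minus off), called the interaction below. It rests on 8 of the 24 libraries of the series, 2 in each of 4 groups. The interaction also equals the difference between both cultures after induction (on difference) less their difference before induction (off difference), and the off difference is given beside many of the genes so that a starting gap can be seen. The Braf culture was BraffloxV600E/+;Villin::CreERT2 and the Braf p53 culture was BraffloxV600E/+;Trp53LSL-R172H/+;Villin::CreERT2, both from C57BL/6N mice. On organoids received 3.5 µM 4-hydroxytamoxifen (4-HT) for 24 h and off organoids ethanol, and RNA was taken on day 3. In the Braf p53 culture 4-HT switched on both BRAFV600E and p53R172H, so its response includes any response to p53R172H itself. The Trp53LSL-R172H/+;Villin::CreERT2 colonic culture (p53 on and p53 off) and the small intestinal organoids of the same 3 genotypes (0.5 µM 4-HT, RNA on day 8) served as references. All cultures, off ones included, carried Cre under the Villin promoter, which is active in intestinal epithelium, and the floxV600E allele gives wild-type BRAF until Cre removes the wild-type cassette. Each genotype was 1 donor culture induced in duplicate. The 2 libraries of a group therefore measure the spread of handling and not of animals, and the p53R172H allele and the donor cannot be told apart in the interaction, the off difference or the on difference.

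BRAF is a serine/threonine kinase that passes signals from RAS to MEK and ERK, and the V600E exchange keeps it active without RAS. In the intestinal epithelium, active ERK signaling raises immediate early and feedback genes and alters the balance of proliferation and differentiation. p53 is a transcription factor that restrains growth under oncogenic stress, and the R172H exchange in its DNA-binding domain impairs target gene activation and acts on the remaining wild-type protein. Absorptive colonocytes, the most abundant differentiated cells of the colonic epithelium, rely on mitochondrial respiration, whereas crypt base cells are known for a higher rate of glycolysis.

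The 12 colonic libraries held 51.2 to 78.2 M counts and 20891 to 22750 detected genes, and 3 counts, taken as the limit of detection, corresponded to 0.041 to 0.064 CPM (read counts scaled to library size). The log2 CPM of replicates correlated with r between 0.962 and 0.980 across genes, and the gap between their counts exceeded sampling noise (chi-square per degree of freedom 30.8 to 92.4). Summed markers of epithelial cells reached 10698 to 31680 CPM, against 1.06 to 3.17 CPM for markers of stromal, vascular and immune cells, so markers of other cell types were near 0 in every library.

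The targeted genes were examined first. Trp53 (chr11:69580359-69591873 of GRCm38) was measured at 289 and 285 CPM in Braf off, 202 and 223 in Braf on, 177 and 155 in Braf p53 off and 276 and 362 in Braf p53 on. It fell in the Braf culture (log2 -0.44, adjusted p = 0.0332) and rose in the Braf p53 culture (log2 0.94, adjusted p = 0.000623), with on and off libraries apart in both. The interaction was 1.37 (SE 0.18, adjusted p = 0.0326), made up of an off difference of -0.79 and an on difference of 0.59, both past the threshold. In the p53 culture Trp53 rose by 0.94 on the log2 scale (adjusted p = 0.0227), from 222 and 244 CPM to 449 and 447 CPM. Less this p53 response, the interaction of Trp53 was 0.43 (SE 0.22, adjusted p = 0.349). The LSL cassette is designed to stop transcription of the mutant allele until Cre removes it. Braf, whose conditional allele both cultures carried, was measured at 29.4 and 30.8 CPM in Braf off, 42.1 and 39.4 in Braf on, 40.5 and 33.2 in Braf p53 off and 50.5 and 45.2 in Braf p53 on. Its interaction was -0.06 (SE 0.21, adjusted p = 0.927), and neither response passed the test (0.44 in Braf and 0.38 in Braf p53). Gene counts do not separate the V600E or R172H transcript from the wild-type one.

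Of 18972 genes tested, 0.907% were called in the interaction (edgeR's quasi-likelihood test, adjusted p under 0.05), 101 with a higher (0.532%) and 71 with a lower (0.374%) response in Braf p53 than in Braf organoids. Their adjusted p-values lay between 0.0199 and 0.05, all near the threshold. At an unadjusted p under 0.05, 1898 genes were higher (10%) and 1698 lower (8.95%). In all called genes, every pairing of an on with an off library gave a response in one culture beyond those of the other, which held for 34.5% of all genes tested. The count depended on single libraries. It was 279 without Braf p53 off replicate 1, 159 without Braf p53 on replicate 1, 50 without Braf off replicate 2, 13 without Braf on replicate 1, 10 without Braf p53 on replicate 2, 7 without Braf p53 off replicate 2 and 4 without Braf on replicate 2. Without Braf off replicate 1 edgeR called 0 genes, with 2789 at an unadjusted p under 0.05. When only the 8 libraries entered the fit, 1 gene was called, against 1366 with DESeq2, 229 with limma-voom and 1312 without a filter on low counts. All genes called in the fit of the 12 libraries kept the sign of their interaction under each alternative that gave a value. Every pairing of libraries already gave the same sign in these genes, so this was largely fixed by their selection and is no independent evidence. Of the called genes, 167 were also called by DESeq2 and 151 by limma-voom. None of them was called in all 8 fits that left out 1 library, so each gene described as called below lost that call in at least 1 of these fits, and the most stable were Cdh13 and Slc11a2, each called in 7 of the 8. The counts of called genes given below are therefore a description of the fit with all 12 colonic libraries. For every list and family below, the shares over all genes tested were 0.532% called higher, 0.374% called lower and 48.1% with an interaction above 0.

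For comparison, the Braf culture alone responded in 3776 genes (19.9%), 1953 up (10.3%) and 1823 down (9.61%), and the Braf p53 culture in 3360 (17.7%), 1888 up (9.95%) and 1472 down (7.76%). The lowest counts without 1 library were 1961 for the Braf response (without Braf on replicate 1; 2489 without Braf on replicate 2, 2223 and 2281 without Braf off replicates 1 and 2) and 1699 for the Braf p53 response (without Braf p53 on replicate 1; 2143 without Braf p53 off replicate 2). Before induction the cultures differed in 1833 genes (9.66%), of which 914 were higher (4.82%) and 919 lower (4.84%) in Braf p53 off. This count fell to 752 without Braf off replicate 1, 1035 without Braf off replicate 2 and 1075 without Braf p53 off replicate 2. After induction they differed in 2653 genes (14%), 1475 higher (7.77%) and 1178 lower (6.21%), and in 1136, 847 and 666 genes without Braf on replicate 1, Braf on replicate 2 or Braf p53 on replicate 2.

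In most called genes the off and on differences had opposite signs to each other, but both differences were called in only 13 of the 101 higher and 10 of the 71 lower genes. Among the 101 higher genes, the off difference was below 0 in 93 and the on difference above 0 in 89, with medians of -0.48 and 0.39. In 91 of them the Braf response was below 0 and in 89 the Braf p53 response was above 0 (medians -0.46 and 0.42). Among the 71 lower genes the pattern was inverted: the off difference was above 0 in 65 and the on difference below 0 in 62 (medians 0.93 and -0.64), with median responses of 1.09 in Braf and -0.58 in Braf p53. Across all genes tested these medians were 0.01 for the off difference, -0.03 for the on difference, -0.01 for the Braf and -0.04 for the Braf p53 response. The off difference was called in 57 of the higher and 44 of the lower genes, and the on difference in 57 and 37. Both differences were called in 13 higher and 10 lower genes. The starting gap was larger than the gap after induction in 97 of the called genes (56.4%), against 46.6% of all genes. Both responses had opposite signs in 122 (70.9%), against 36.0% of all genes. The off libraries enter both the interaction and the off difference, so these counts describe the called genes and are no independent evidence. Whether a called gene reflects another starting point of the culture or another response to BRAFV600E cannot be told apart with 1 culture per genotype, and in bulk RNA neither can fewer cells of a type and less RNA per cell.

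**Figure D1:**
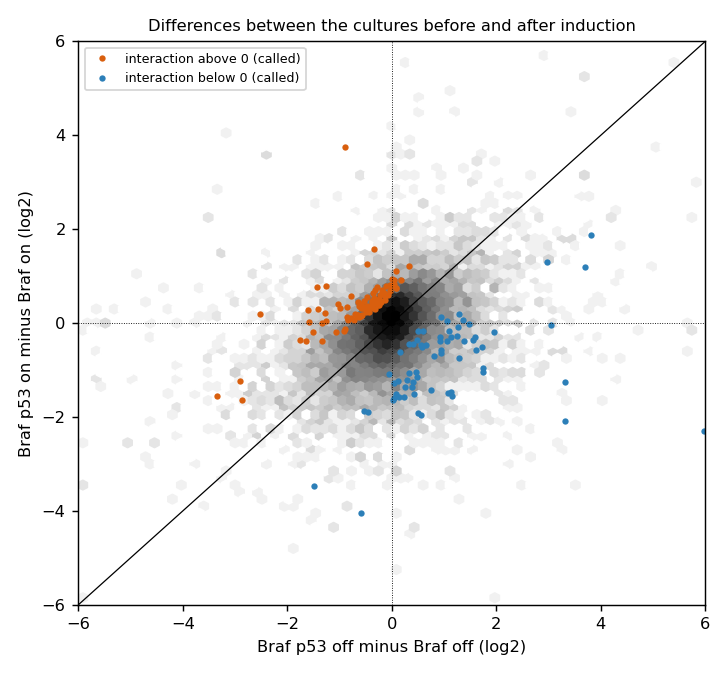
Off difference (x axis, Braf p53 off minus Braf off, log2) against on difference (y axis, Braf p53 on minus Braf on, log2) for the genes tested; grey shading is the density of genes, points are called genes with the interaction above 0 (orange) or below 0 (blue), and on the diagonal the interaction is 0. The axes end at 6 on either side, 163 called genes lie within them and 9 outside, and most orange points lie to the left of 0 and above it while most blue points lie to the right and below.

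Among the 101 genes called higher were 5 of oxidative phosphorylation and 3 of glycolysis. Oxidative phosphorylation couples electron transport through complexes I to IV of the inner mitochondrial membrane to ATP synthesis, and nearly all of its subunits are encoded in the nucleus. All 25 nuclear-encoded members of the list had an interaction above 0 (median 0.50), and 5 of 25 were called, with the background at 0.532%. Sdhb, the iron-sulfur subunit of succinate dehydrogenase (chr4:140961203-140979193), was measured at 361 and 361 CPM in Braf off, 238 and 245 in Braf on, 242 and 222 in Braf p53 off and 267 and 262 in Braf p53 on. The Braf off libraries stood apart above all others, and the on libraries of both cultures lay close together. Its interaction was 0.77 (SE 0.12, adjusted p = 0.0404), with an off difference of -0.64 (adjusted p = 0.000989) and an on difference of 0.13 (adjusted p = 0.365). Uqcrc1, a core subunit of complex III, was measured at 788 and 662 CPM in Braf off, 564 and 591 in Braf on, 609 and 560.0 in Braf p53 off and 770.4 and 828 in Braf p53 on. It gave -0.33 in Braf (adjusted p = 0.0633), rose in Braf p53 (log2 0.45, adjusted p = 0.0179), and gave an interaction of 0.78 (SE 0.16, adjusted p = 0.0491). The other called members were the succinate dehydrogenase anchor Sdhd (0.62) and the complex I subunits Ndufb8 (0.78) and Ndufa9 (0.75).

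Over the 25 members the off difference had a median of -0.30 and the on difference one of 0.21. In Braf organoids 14 members fell (9.61% of all genes) and none rose past the threshold, whereas in Braf p53 organoids 5 rose (9.95% of all genes) and none fell. At an unadjusted p under 0.05, 20 of 25 had a higher interaction. The median lay between 0.44 (without Braf p53 off replicate 2) and 0.59 (without Braf p53 on replicate 1) when 1 library was left out, and was 0.33 when a trend with exon length and GC content was removed. With that trend removed none of the 5 members was called any longer (adjusted p between 0.0568 for Uqcrc1 and 0.151 for Sdhd). For gene families that were chosen after their values were seen, and that overlap the list, the values are a description only. The interaction was above 0 in 36 of 37 complex I subunits (Nduf, 5 called), 8 of 8 complex III subunits (Uqcr, 1 called), 13 of 13 complex IV subunits (Cox) and 17 of 17 subunits of ATP synthase (Atp5), the last 2 families with 0 calls and 5 and 12 members at an unadjusted p under 0.05. Of 74 mitochondrial ribosomal proteins 68 were above 0 and 5 were called (Mrpl36, Mrpl4, Mrpl51, Mrps17 and Mrps28). With the length and GC trend removed, 1 of the 5 Nduf calls (Ndufs7), 0 of the 1 Uqcr call and 2 of the 5 mitochondrial ribosomal calls (Mrps17 and Mrps28) were kept. Of 77 cytosolic ribosomal proteins 54 were above 0, with a median of 0.12 and 0 calls (9 at an unadjusted p under 0.05). Ndufaf5, an assembly factor of complex I, had an interaction of 1.43.

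Of the promoters of 8 called energy genes, the 3 that hold a match to the NRF1 motif are shown. The transcription factor NRF1 is known for sites in promoters of respiratory chain genes. Sequences are from RefSeq (GRCm38.p6), 5′ to 3′ on the strand of the gene, and capitals mark matches to its palindromic motif, GCGC and again GCGC with 2 bases of any kind between them, which reads alike on both strands. Uqcrc1 (chr9:108936398-108936697, plus strand) held 2 matches, Sdhd (chr9:50603800-50604099, minus strand) 1 and the glycolytic Eno1 (chr4:150236458-150236757, plus strand; 1 of 3 start sites in the table) 1.
Uqcrc1: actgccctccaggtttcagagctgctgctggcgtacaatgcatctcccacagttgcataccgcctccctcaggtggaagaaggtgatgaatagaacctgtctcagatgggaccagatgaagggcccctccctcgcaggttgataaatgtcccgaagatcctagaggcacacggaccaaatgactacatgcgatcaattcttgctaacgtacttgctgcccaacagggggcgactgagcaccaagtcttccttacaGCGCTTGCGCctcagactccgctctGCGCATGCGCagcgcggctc
Sdhd: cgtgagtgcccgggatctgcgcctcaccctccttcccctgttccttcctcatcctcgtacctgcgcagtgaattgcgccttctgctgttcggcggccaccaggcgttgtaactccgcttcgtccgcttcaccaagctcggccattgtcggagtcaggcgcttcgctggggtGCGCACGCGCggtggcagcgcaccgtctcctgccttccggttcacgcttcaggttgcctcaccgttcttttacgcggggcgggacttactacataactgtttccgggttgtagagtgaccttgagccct
Eno1: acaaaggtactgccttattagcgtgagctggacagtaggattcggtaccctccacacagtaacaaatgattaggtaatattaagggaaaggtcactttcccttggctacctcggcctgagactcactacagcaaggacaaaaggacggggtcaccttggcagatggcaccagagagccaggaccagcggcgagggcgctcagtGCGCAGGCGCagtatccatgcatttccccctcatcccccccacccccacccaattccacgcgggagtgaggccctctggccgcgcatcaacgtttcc
The motif was found in 6.43% of 27025 promoters of the same length, 1 per gene. It was found in 5 of the 17 oxidative phosphorylation members with a promoter in the table (29.4%; 8 of the 25 had none) and in 2 of 16 glycolysis members (12.5%). The GABP motif CCGGAAGT, searched on both strands, was found in 4% of all promoters, 1 of the 17 and 0 of the 16. The 1 promoter searched for each of the other 5 called energy genes (Sdhb, Ndufb8, Ndufa9, Pkm and Aldoa) held neither motif. Pkm had 2 start sites listed and Aldoa 3, of which only 1 each was searched. A match is a description of these letters and not a measured site.

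Glycolysis genes also started lower in Braf p53. Unlike those of oxidative phosphorylation, 0 of 16 fell past the threshold in Braf organoids (9.61% of all genes). All 16 members of the list had an interaction above 0 (median 0.63, between 0.54 and 0.75 without 1 library and 0.61 with the length and GC trend removed), and 3 were called, of which Aldoa lost its call with that trend removed (log2 0.81, adjusted p = 0.0578). Pkm, the pyruvate kinase of proliferating tissues, was measured at 4073 and 3901 CPM in Braf off, 4353 and 4104 in Braf on, 2904 and 2642 in Braf p53 off and 5528 and 5184 in Braf p53 on. The Braf p53 off libraries were the lowest and the Braf p53 on libraries the highest of the 4 groups, which gave an interaction of 0.86 (SE 0.15, adjusted p = 0.0406). Aldoa, fructose-bisphosphate aldolase, was measured at 4022 and 3836 CPM in Braf off, 3844 and 3837 in Braf on, 2461 and 2087 in Braf p53 off and 4398 and 3836 in Braf p53 on, with the Braf p53 off libraries below the other 3 groups and an interaction of 0.89 (SE 0.17, adjusted p = 0.0466). Eno1, enolase, had an interaction of 0.74 and its Braf p53 levels rose from 2082 and 1862 CPM to 4034 and 3723 CPM. Reads of Pkm, Aldoa and Eno1 may be shared with overlapping genes or near-identical copies, which could not be resolved from gene counts. In the off state 15 of 16 members were lower in Braf p53 (median off difference -0.76, with 4.84% of all genes called lower). After induction 2 were lower and 0 were higher past the threshold (median on difference -0.16). In Braf p53 organoids 15 of 16 rose on induction (9.95% of all genes), and in Braf organoids 3 of 16 did (10.3% of all genes).

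Of 17 genes of fatty acid oxidation and ketogenesis, 13 had an interaction above 0 (median 0.59, or 0.54 without the 1 member at the limit of detection in a group, and 0.39 with the length and GC trend removed). Oat, ornithine aminotransferase, was measured at 1946 and 1814 CPM in Braf off, 256 and 287 in Braf on, 738 and 582 in Braf p53 off and 210.5 and 265 in Braf p53 on. Both cultures fell (log2 -2.79 in Braf and -1.47 in Braf p53) and met at similar on levels (on difference -0.19, adjusted p = 0.514), so that an off difference of -1.51 lay beside an interaction of 1.32 (SE 0.24, adjusted p = 0.0436). With Aldh18a1 (0.91), which makes the precursor of proline and ornithine, Oat was 1 of 2 called among 12 enzymes of the urea cycle and of arginine and glutamine (8 above 0, median 0.51). Neither was called with the length and GC trend removed (log2 1.11 and adjusted p = 0.0578 for Oat, 0.79 and 0.0686 for Aldh18a1). Of 24 genes of cholesterol and fatty acid synthesis, 21 were above 0 (median 0.27) and 2 were called. Dhcr7, the last enzyme of cholesterol synthesis, fell in Braf organoids (from 174 and 157 to 78.0 and 80.5 CPM) and stood at 142 and 132 CPM before and 135 and 136 CPM after induction in Braf p53 organoids, with an interaction of 1.05 (SE 0.14, adjusted p = 0.0326). Scd1, a fatty acid desaturase, had 1.0.

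Other genes were called higher one by one or as members of a family. Slc11a2, the divalent metal transporter of the apical membrane (chr15:100387898-100425072), was measured at 119 and 110.3 CPM in Braf off, 36.3 and 42.0 in Braf on, 44 and 31.2 in Braf p53 off and 47.8 and 47.5 in Braf p53 on. Only the Braf off libraries stood apart, and the other 6 lay between 31.2 and 47.8 CPM. Its interaction was 1.89 (SE 0.23, adjusted p = 0.0261), with an off difference of -1.61 and an on difference of 0.28 (adjusted p = 0.271). Adh1, an alcohol dehydrogenase that also oxidizes retinol, was measured at 178 and 187 CPM in Braf off, 52.3 and 61.1 in Braf on, 27.1 and 21.7 in Braf p53 off and 27.5 and 20.8 in Braf p53 on, fell in Braf organoids (-1.69) and was near its off level in Braf p53 organoids (-0.01, adjusted p = 0.977), with an off difference of -2.90 and an interaction of 1.67 (SE 0.25, adjusted p = 0.0354). Of 19 glutathione S-transferases, a family chosen after its values were seen, 17 were above 0 (median 0.57) and 4 were called, namely Gstp3 (1.31), Gstm4 (1.28), Gstm3 (1.23) and Gstp1 (0.85), whose near-identical copies make their counts uncertain. Of these Gstp1 and Gstm4 lost their call with the length and GC trend removed. In the off state 13 of the 19 were lower in Braf p53, against 4.84% of all genes. The sulfotransferase Sult1c2 (1.72), the epoxide hydrolase Ephx1 (0.93), the carbonyl reductase Cbr2 (2.05) and the peroxisomal oxidase Hao2 (1.91) were also called. So were Fkbp11, a protein folding enzyme of the endoplasmic reticulum (1.49), and Mfsd2a, a carrier of lysophospholipids (1.39). Off differences were -1.41 for Sult1c2, -0.84 for Ephx1, -1.26 for Cbr2, -0.33 for Hao2, -1.28 for Fkbp11 and -1.75 for Mfsd2a. Of these 6 genes Ephx1, Hao2 and Mfsd2a lost their call with the length and GC trend removed. Reads of Slc11a2 and Adh1 may include those of antisense genes that overlap 402 of 6354 and 136 of 2233 exonic bases.

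**Figure D2:**
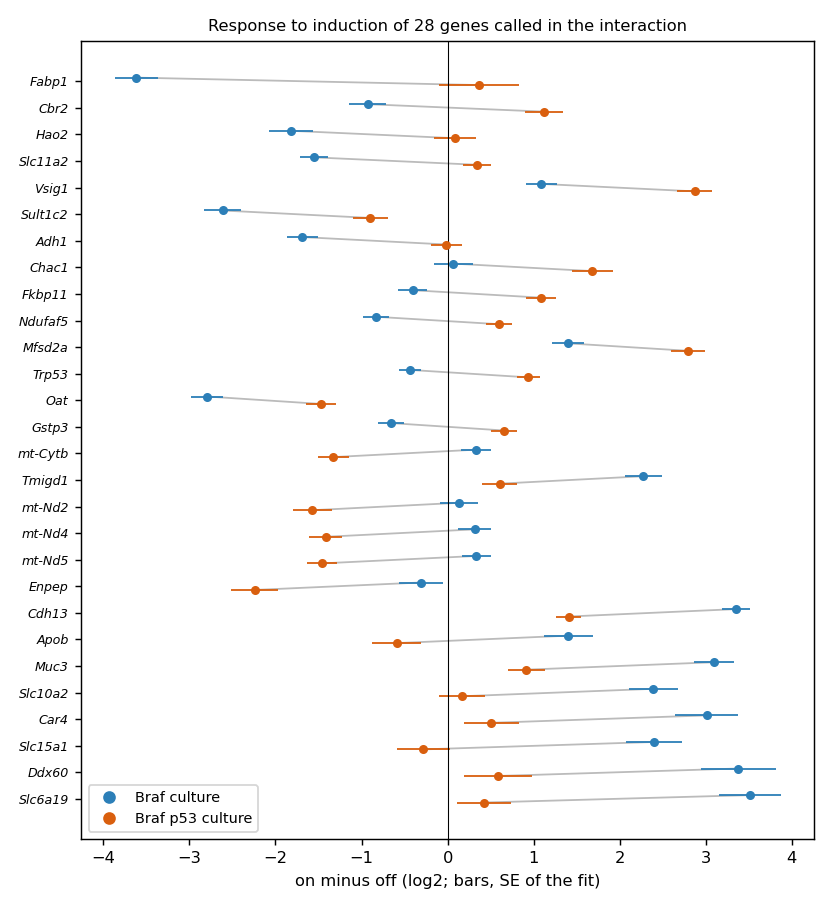
Response to induction (x axis, on minus off, log2; bars, SE of the fit) of 28 genes with large interactions, 14 higher and 14 lower, chosen by the rule for named genes, in the Braf culture (blue) and the Braf p53 culture (orange). In the upper 14 genes the orange point lies to the right of the blue one, from 3.98 for Fabp1 to 1.31 for Gstp3, and in the lower 14 it lies to the left, from -1.66 for mt-Cytb to -3.10 for Slc6a19.

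In contrast to the nuclear-encoded subunits, genes of the mitochondrial genome had a lower interaction. They encode a few respiratory chain subunits and the RNAs needed to translate them. This family was chosen after its values were seen. All 15 that passed the filter were below 0 (median -1.66) and 8 were called, against 0.374% of all genes, namely mt-Nd5, mt-Nd4, mt-Nd2, mt-Cytb, mt-Co1, mt-Rnr2, mt-Nd1 and mt-Co3. All 8 stayed called with the length and GC trend removed. mt-Nd5, a complex I subunit, was measured at 2165 and 2867 CPM in Braf off, 2986 and 3363 in Braf on, 2399 and 3493 in Braf p53 off and 1144 and 1002 in Braf p53 on. The Braf p53 on libraries lay below the other 6, which overlapped. The interaction was -1.79 (SE 0.25, adjusted p = 0.0326), the off difference 0.23 (adjusted p = 0.466) and the on difference -1.57 (adjusted p = 0.000463). mt-Cytb, of complex III, was measured at 6890.4 and 8782 CPM in Braf off, 9026 and 10672 in Braf on, 8456 and 12235 in Braf p53 off and 4251 and 4000.2 in Braf p53 on, again lowest in Braf p53 on, with an interaction of -1.66 (SE 0.25, adjusted p = 0.0354). Here the starting levels were not called apart in any of the 15 genes, whereas 13 were lower in Braf p53 on than in Braf on. Together these genes took 5.54 and 8.14% of counts in Braf off, 6.74 and 8.36% in Braf on, 6.51 and 8.84% in Braf p53 off and 2.86 and 2.58% in Braf p53 on. The mean share was 2.72% ± 0.196 (SD, n = 2) in Braf p53 on and 7.55% ± 1.14 in Braf on, and an exact permutation test (two-sided) gave p = 0.333, the smallest it can give with 2 against 2. In the p53 culture the share was 3.17 and 3.56% off and 3.11 and 4.26% on, so it was low in both states. The share of mitochondrial RNA also moves with RNA quality and extraction, and their part in the result was not tested. With these genes left out of the library totals, 188 genes were called, 163 of them also called with the full totals.

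**Figure D3:**
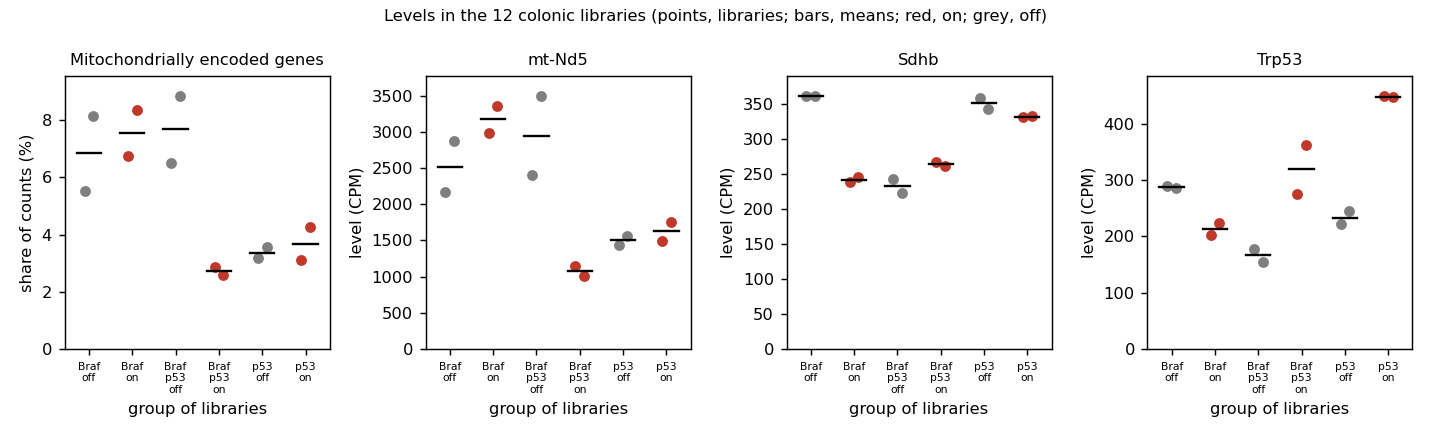
Share of counts from mitochondrially encoded genes (percent) and levels of mt-Nd5, Sdhb and Trp53 (CPM) in the 12 colonic libraries, with each point a library, each bar the mean of 2, red for on and grey for off; all y axes start at 0. The share is 2.86 and 2.58% in Braf p53 on, below the other Braf and Braf p53 libraries, Sdhb is highest in Braf off among the 4 groups compared, and Trp53 is higher on than off in both cultures that carry the Trp53 allele.

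Genes of absorptive cells were called in both directions. Of 41 absorptive cell genes, 30 had an interaction below 0 (median -0.49, -0.15 without Braf p53 on replicate 2 and -0.75 without Braf p53 on replicate 1). In this list 3 were called lower (0.374% of all genes) and 2 higher (0.532% of all genes). Apob, the structural protein of intestinal lipoproteins, was measured at 51.8 and 53.2 CPM in Braf off, 162 and 115 in Braf on, 19.4 and 18.1 in Braf p53 off and 16.8 and 7.94 in Braf p53 on. It rose in Braf organoids (log2 1.40) and gave -0.59 in Braf p53 organoids (adjusted p = 0.187), an interaction of -1.99 (SE 0.40, adjusted p = 0.0477). Apoa1, an apolipoprotein of high-density lipoprotein, was measured at 308 and 294 CPM in Braf off, 305 and 360.0 in Braf on, 436 and 396 in Braf p53 off and 198 and 124 in Braf p53 on, with both Braf p53 on libraries below the rest and an interaction of -1.51 (SE 0.29, adjusted p = 0.0466). Car4, a membrane-bound carbonic anhydrase of surface colonocytes, had an interaction of -2.50 (SE 0.48, adjusted p = 0.0463), and its off difference of 3.70 was larger than its on difference of 1.20. The 2 called higher were Fabp1 and the tight junction gene Cldn15 (0.77). Apob and Cldn15 lost their call with the length and GC trend removed (log2 -1.79 and 0.56, adjusted p = 0.0652 and 0.0692).

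Fabp1, a cytosolic fatty acid-binding protein, had the largest positive interaction of the named genes and the largest starting gap. It was measured at 100.2 and 94.6 CPM in Braf off, 7.53 and 8.36 in Braf on, 0.0931 and 0.275 in Braf p53 off and 0.313 and 0.152 in Braf p53 on. The Braf culture lost 12.3-fold on induction, and the Braf p53 culture was already 529-fold lower before induction, in the range of a few detection limits, where its response of 0.37 did not pass the test (adjusted p = 0.640). The interaction was 3.98 (SE 0.53, adjusted p = 0.0326), against an off difference of -9.03 and an on difference of -5.04. In the p53 culture Fabp1 was likewise low, at 0.645 and 0.476 CPM off and 0.236 and 0.297 CPM on.

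Slc6a19, the main carrier of neutral amino acids, was measured at 2.98 and 1.38 CPM in Braf off, 26.2 and 24.0 in Braf on, 22.6 and 13.8 in Braf p53 off and 28.8 and 19.8 in Braf p53 on. It rose 11.5-fold in Braf organoids to the level that Braf p53 organoids had before and after induction, and its interaction of -3.10 (SE 0.47, adjusted p = 0.0354) came with an off difference of 3.05 and an on difference of -0.05. The peptide carrier Slc15a1 (-2.68, off difference 1.74) and the bile acid carrier Slc10a2 (-2.22, off difference 1.72) were also called, and of 14 carriers in a family chosen after the values were seen 10 were below 0. All 14 brush border peptidases and glycosidases, chosen in the same way, were below 0 (median -1.07, or -1.0 without the 1 member at the limit of detection in a group) and 2 were called, Enpep (-1.93) and Mep1a (-1.58). Enpep, glutamyl aminopeptidase, was measured at 56.5 and 58.4 CPM in Braf off, 51.1 and 41.4 in Braf on, 72.5 and 81.2 in Braf p53 off and 21.1 and 11.3 in Braf p53 on, lowest in Braf p53 on. All 7 apolipoproteins tested, again a family chosen after its values were seen, were below 0, with Apoa1, Apob and Apoc3 (-2.41) called. Muc3, a membrane-bound mucin of the brush border and 1 of 19 genes in the list of goblet cells and mucins (1 called, median 0.09, between -0.03 and 0.30 without 1 Braf p53 on library), was measured at 61.8 and 71.4 CPM in Braf off, 577 and 559 in Braf on, 193 and 215 in Braf p53 off and 473 and 296 in Braf p53 on. Both cultures rose, by 8.53-fold in Braf and 1.88-fold in Braf p53, the off difference was 1.62 and the interaction was -2.18 (SE 0.30, adjusted p = 0.0326).

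Cdh13, an atypical cadherin anchored to the membrane by a lipid (chr8:118283733-119324921), had the smallest adjusted p. It was measured at 4.31 and 4.84 CPM in Braf off, 44.3 and 49.2 in Braf on, 64.9 and 64.2 in Braf p53 off and 188 and 154 in Braf p53 on. It rose in both cultures, 10.2-fold in Braf and 2.65-fold in Braf p53, yet the Braf p53 organoids were 14.1-fold higher before and 3.65-fold higher after induction. Its interaction was -1.95 (SE 0.21, adjusted p = 0.0199) and it was called in all 9 alternatives that change the fit or the filter, and in 7 of the 8 that leave out 1 library (without Braf off replicate 1 the adjusted p was 0.0781). Tmigd1, an adhesion molecule of the colonic brush border, was measured at 27.4 and 33.9 CPM in Braf off, 170.1 and 127 in Braf on, 233 and 245 in Braf p53 off and 454 and 273 in Braf p53 on, with the same order of groups as Cdh13 and an interaction of -1.67 (SE 0.29, adjusted p = 0.0404). Of 22 genes of interferon response and antigen presentation 11 were above and 11 below 0 (median -0.07, -0.48 without Braf off replicate 1 and 0.09 without Braf on replicate 1). The helicase Ddx60, which is induced by interferon, had -2.79 (call lost with the length and GC trend removed, log2 -2.68, adjusted p = 0.0649), with 52.0 and 23.0 CPM in the Braf on replicates.

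Lists closest to the question of p53 and ERK had few or no calls. Of 36 p53 targets 17 were above and 19 below 0 (median -0.06, 0.03 without Braf p53 off replicate 2) and 1 was called, Ephx1. Cdkn1a, the p21 cell cycle inhibitor, had an interaction of 0.29 (SE 0.24, adjusted p = 0.558), and Mdm2, the ubiquitin ligase of p53, -0.32 (SE 0.21, adjusted p = 0.440). On induction 17 of the 36 rose in Braf and 16 in Braf p53, against 10.3% and 9.95% of all genes. Of 26 ERK targets, 6 were above and 20 below 0 (median -0.30, -0.19 without Braf off replicate 2) with 0 called by edgeR (3 higher and 7 lower at an unadjusted p under 0.05), and 19 rose in Braf and 17 in Braf p53. The feedback phosphatase Dusp6 had 0.45 (SE 0.27, adjusted p = 0.384) and the growth factor Ereg -2.01 (SE 0.55, adjusted p = 0.0906). A p that misses the threshold does not show that both responses were alike.

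Among proliferation genes, 0 were called in the interaction by edgeR. Of 23 DNA replication genes 20 were above 0 (median 0.33, 0.19 without Braf p53 on replicate 2), 7 higher and 1 lower at an unadjusted p under 0.05. Of 20 mitosis genes 14 were above 0 (median 0.47, 0.20 without Braf p53 on replicate 2 and 0.26 with the length and GC trend removed), 9 at an unadjusted p. Replication genes fell in 16 of 23 cases in Braf, with 9.61% of all genes falling, and in 2 in Braf p53, near the 7.76% of all genes. Mitosis genes fell in 18 and 7 of 20, against the same shares. After induction 13 replication and 12 mitosis genes were higher in Braf p53 than in Braf (background 7.77%), with none called in the off state. Cdc45, a subunit of the replicative helicase, had 0.77 (SE 0.25, adjusted p = 0.128) and the mitotic kinase Aurka 0.85 (SE 0.23, adjusted p = 0.0850).

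Another 6 lists had medians below 0 and 0 calls by edgeR. They were adhesion, caveolae, matrix and invasion (21 of 27 below 0, median -0.47, -0.31 without Braf p53 on replicate 2, 1 higher and 8 lower at an unadjusted p under 0.05), fetal and regenerative genes (19 of 23, -0.39, 9 lower), stem cell and Wnt targets (17 of 25, -0.32, 4 lower), tuft cells (10 of 10, -0.71, 4 lower), enteroendocrine cells (9 of 15, -0.38, 1 higher and 1 lower) and epithelial-mesenchymal transition (4 of 6, -0.91, 2 lower). The last median, over 6 genes of which 2 were at the limit of detection in a group, moved to 0.46 without Braf p53 off replicate 2, and that of enteroendocrine cells to -0.04 without Braf p53 on replicate 2. Adhesion and invasion genes rose in 23 of 27 cases in Braf (10.3% of all genes) and 16 in Braf p53 (9.95%). Of 20 stress response genes 15 were above 0 (median 0.23, 0.14 and 0.35 without Braf p53 off replicate 1 and 2, 0.08 with the length and GC trend removed) and 1 was called, Chac1, an enzyme that degrades glutathione, at 1.61 (call lost with the trend removed, log2 1.49, adjusted p = 0.0584). In the Hox and regional list 0 of 20 were called by edgeR (3 higher and 2 lower at an unadjusted p), and in the list of gastric and serrated lesion markers 1 of 11, Vsig1.

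**Figure D4:**
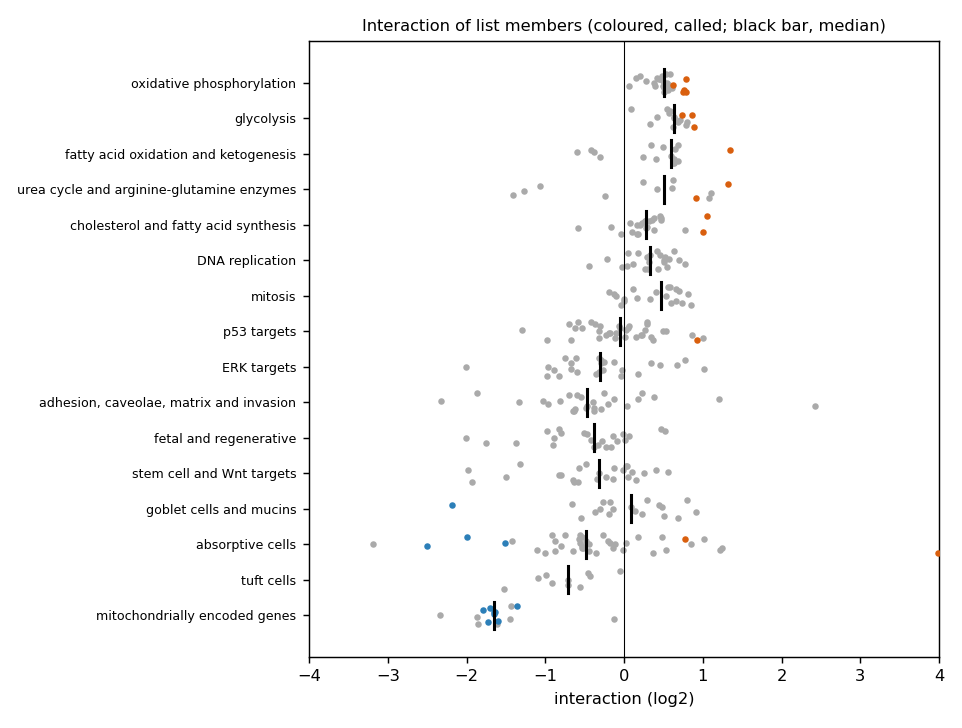
Interaction (x axis, log2) of the members of 16 gene lists (y axis), each point a gene, coloured where called (orange above and blue below 0), with the list's median as a black bar; 1 member lies outside the axis, which ends at 4 on either side. All points of oxidative phosphorylation and glycolysis lie to the right of 0, all those of mitochondrially encoded genes and tuft cells to the left, and the other lists spread over 0.

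The study names the 14 transcripts of a further list for BRAFV600E, alone or together with p53R172H, or for the difference between tissues. They were chosen on these samples, so their values are no independent evidence. One of the 14 was called, Vsig1, a junctional protein of gastric epithelium. It was measured at 25.5 and 32.2 CPM in Braf off, 65.9 and 57.0 in Braf on, 2.53 and 3.18 in Braf p53 off and 18.2 and 23.6 in Braf p53 on, all groups apart, and rose 2.13-fold in Braf and 7.32-fold in Braf p53, from a start that was 10.1-fold lower in Braf p53. Its interaction was 1.78 (SE 0.26, adjusted p = 0.0354). Even after induction the Braf p53 level was 2.94-fold below that of Braf. Nr2e3, a nuclear receptor, was measured at 8.55 and 9.83 CPM in Braf off, 0.602 and 0.319 in Braf on, 3.21 and 2.48 in Braf p53 off and 0 in both Braf p53 on libraries. It fell 19.9-fold in Braf and at least 62.3-fold in Braf p53, against a limit of 3 counts per library. The fitted interaction missed the threshold with edgeR (adjusted p = 0.0544) and passed it with DESeq2 (adjusted p = 0.00883).

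Sis, the sucrase-isomaltase of the brush border, was measured at 433 and 499 CPM in Braf off, 253 and 219.9 in Braf on, 132 and 154 in Braf p53 off and 39.0 and 14.8 in Braf p53 on, with -1.43 (SE 0.43, adjusted p = 0.113), and passed without Braf p53 on replicate 1 (adjusted p = 0.00207). Cav1, the main protein of caveolae, reached 21.7 and 23.3 CPM in Braf on and 79.1 and 55.6 CPM in Braf p53 on, from 2.89 and 1.49 and from 1.66 and 4.07 CPM, and its interaction of 1.20 had an SE of 0.65 (adjusted p = 0.347), and was 0.64 without Braf off replicate 1 and 1.99 without Braf p53 off replicate 2. The on difference of Cav1 was called (1.58, adjusted p = 0.0341). The stem cell genes Olfm4 (-1.32, SE 1.13) and Smoc2 (-0.65, SE 0.35), the ephrin receptor Epha2 (-0.29, SE 0.32), the integrin Itgb4 (-0.47, SE 0.28), Myof (-0.55, SE 0.33), the secreted mucin Muc2 (-0.55, SE 0.28), Fgf15 (-0.15, SE 0.34), the protease Ctse (0.28, SE 0.57), Cldn18 (0.71, SE 0.73) and Gjb5 (2.41, SE 1.81) did not pass, with adjusted p-values from 0.316 for Muc2 to 0.868 for Fgf15. Several of these values rested on 1 library: Olfm4 gave -0.30 without Braf p53 on replicate 1 and -4.23 without Braf p53 on replicate 2. The latter fit left Braf p53 on with 3 Olfm4 counts, the limit of detection, so -4.23 is not an exact value. Ctse and Fgf15 changed sign, with -0.27 for Ctse without Braf p53 off replicate 2 and 0.16 for Fgf15 without Braf p53 on replicate 2. Gjb5 had 0 and 18 counts in Braf off replicates 1 and 2, so no value is given for it without replicate 2. The fitted responses of the genes that did not pass ran in the same direction in both cultures, for instance 1.97 and 1.67 for Epha2.

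Before induction both cultures differed in genes of regional position. Hox genes record the position of epithelium along the gut, with the posterior members of a cluster active in the distal colon. Hoxa13, the most posterior of its cluster, was measured at 15.6 and 11.8 CPM in Braf off and at 0 in both Braf p53 off libraries, at least 297-fold lower. Hoxa11 was 33.0-fold, Hoxa10 6.79-fold and Hoxa9 2.71-fold lower in Braf p53 off, while Hoxb9 was 1.83-fold higher. In all, 6 of the 20 genes tested in the list of Hox and regional genes were higher and 5 lower in the off state, against 4.82% and 4.84% of all genes. Induction left this order in place: Hoxa13 was 17.0 and 17.7 CPM in Braf on and 0 and 0.0337 CPM in Braf p53 on. The p53 culture lay between both for Hoxa13 (2.21 and 2.28 CPM off) and near the Braf culture for Hoxa10 (103 and 111 CPM off against 116 and 129.5). The p53R172H allele, the donor and the part of the colon it was taken from cannot be told apart here.

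**Figure D5:**
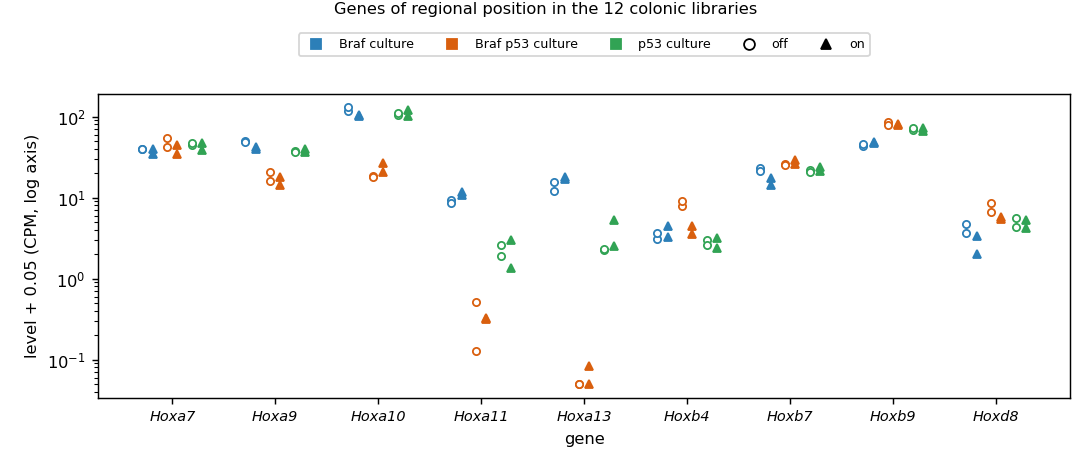
Levels (y axis, CPM plus 0.05, log axis) of 9 genes of regional position (x axis) in the 12 colonic libraries, coloured by culture, open circles for off and triangles for on. Hoxa10, Hoxa11 and Hoxa13 of the Braf p53 culture lie below both other cultures in every library, in the off as in the on state, whereas the levels of Hoxa7 in the 3 cultures overlap.

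Among genes with an average log2 CPM of at least 3, the largest off differences to the higher side were those of Nmral1, a redox sensor (174-fold, 0.0155 and 0.297 CPM in Braf off and 30.1 and 24.2 CPM in Braf p53 off), Eif2s3y, a translation factor gene on the Y chromosome (124-fold, 0.0933 and 0.0350 CPM in Braf off and 9.59 and 6.33 CPM in Braf p53 off), the GABA receptor subunit Gabrp (93.0-fold, 0.420 and 0 CPM in Braf off and 10.3 and 28.7 CPM in Braf p53 off), the water channel Aqp8 of surface colonocytes (49.3-fold, 0.295 and 0 CPM in Braf off and 2.44 and 12.1 CPM in Braf p53 off) and Wfdc18 (0.264 and 0.437 CPM in Braf off and 7.20 and 20.7 CPM in Braf p53 off). The folds of Gabrp and Aqp8 rest on 1 Braf off library with counts and are uncertain. To the lower side they included Fabp1, the cytidine deaminase Apobec3 (32.3-fold), Gata4, a transcription factor of proximal intestine (21-fold, 54.8 and 47.1 CPM in Braf off and 1.89 and 2.95 CPM in Braf p53 off), and the cytochrome P450 Cyp2b10 (18-fold). The other Y-linked genes measured did not follow Eif2s3y: over the 12 colon libraries Ddx3y lay between 51.2 and 71.7 CPM, Uty between 15.5 and 30.7 CPM and Kdm5d between 15.5 and 23.0 CPM, and Xist reached at most 0.0440 CPM. Of the 9 genes with these off differences only Fabp1 was called in the interaction. The starting gaps of the other 8 stayed on the same side after induction, from 2.35 for Aqp8 (adjusted p = 0.0666) to 7.31 for Eif2s3y to the higher side and from -4.79 for Gata4 to -3.67 for Cyp2b10 to the lower side.

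The p53 culture shows the response to 4-HT with the Trp53LSL-R172H allele and no conditional Braf allele. There 27 genes responded (0.142%), 4 of which were also called in the interaction, namely Trp53, Enpep, Apoa1 and Apoc3. When the p53 response was taken off the interaction, 121 genes were called (0.638%), and 59 of them were also called in the interaction itself (35 higher and 24 lower). That count was 332 without Braf p53 off replicate 1 and 15 without Braf off replicate 1, with values between 19 and 72 when another of the 8 libraries was left out. Enpep, Apoa1 and Apoc3 fell in the p53 culture, with log2 responses of -1.6, -1.85 and -2.21 there, beside interactions of -1.93, -1.51 and -2.41. Less the p53 response, the median of the oxidative phosphorylation list was 0.57, that of glycolysis 0.87, that of the mitochondrially encoded genes -1.77 and that of the brush border peptidases -0.04.

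In small intestinal organoids, the same contrast called 1383 of 16856 genes (8.2%), and the interaction differed between both tissues in 1353 of 19673 genes (6.88%). The tissues also differ in dose and day. By the study's methods they differ in medium as well, with Wnt3a and a GSK3 inhibitor added for colonic crypts only. None of these can be told apart from the tissue. Of the 101 genes called higher in colon, 33 were above 0 in the small intestine, and of the 66 called lower that were tested there 38 were, the latter near the 52.2% of all genes tested in both tissues. The difference between tissues was itself called for 74 of the higher and 34 of the lower genes, counts partly set by their selection on the same colon values. It was called for 14 of the 25 oxidative phosphorylation and 11 of the 16 glycolysis genes, of which 3 and 0 were above 0 in the small intestine, and for 11 of the mitochondrially encoded genes. Trp53 gave 1.14 in the small intestine (adjusted p = 0.00299), and the difference between tissues did not pass (adjusted p = 0.708). Slc11a2 gave -0.85 there against 1.89 in colon, and the difference passed (adjusted p = 0.000827). Among the genes called lower in both tissues were Car4, Enpep, Slc15a1, Apoa1, Slc6a19 and Apob, with -5.93, -3.23, -3.01, -1.86, -1.77 and -1.38 in the small intestine.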

How the data were processed

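RNA was sequenced from 24 organoid libraries, paired-end on a HiSeq4000. The authors trimmed reads with Trimmomatic 0.36 and aligned them with STAR 2.5.2b to the mouse genome (mm10, equal to GRCm38), as named in the submitters' processing notes, and deposited raw read counts per gene with replicates kept apart. The annotation and the use of strand are not given in the sources used here, so reads of overlapping genes could not be told apart.

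Gene symbols and coordinates came from GENCODE M21 (45143 of 45706 identifiers matched). The 12 colonic libraries were scaled by TMM, filtered with filterByExpr and analysed together with edgeR's quasi-likelihood functions, each group having its own mean (edgeR 4.0.16 in R 4.3.3, 6 residual degrees of freedom). The interaction, the off and on differences and the responses were contrasts of this fit, with calls made where p, adjusted over all genes tested by Benjamini-Hochberg, was under 0.05. A joint fit of both tissues gave the difference between them. Levels are TMM-scaled CPM. Differences and SEs are log2 values of the fit. A level at or under 3 counts per library was treated as below detection, and folds against it are bounds.

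Named genes were Braf and Trp53, the 14 transcripts named by the study, at most 15 called genes a direction, taken by size of the interaction, with an average log2 CPM of at least 3, up to 6 called members per list, and the 5 largest off differences per direction. Predicted genes were skipped, some genes chosen by these rules are not reported here, and families marked as such were chosen after their values were seen. All members and lists were chosen with earlier results of these data known. Alternatives were RLE size factors, no filter, a minimum of 10 counts per library, limma-voom (limma 3.58.1), DESeq2 1.42.0, a log2 difference of at least 1, the 8 libraries alone, a replicate block and each library left out. Removal of a length and GC trend and leaving out mitochondrially encoded genes were added after seeing the data. The statistics were tested on simulated data.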

Additional observations from a re-analysis of the deposited data

Results flagged for a closer look

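The responses of the Braf and the Braf p53 culture differed by the test of the interaction itself in 101 genes with a higher and 71 with a lower response in Braf p53. Of the genes named, the response was higher in Braf p53 (log2 difference of the responses) for Trp53 (1.37), Vsig1 (1.78), Fabp1 (3.98), Cbr2 (2.05), Hao2 (1.91), Slc11a2 (1.89), Sult1c2 (1.72), Adh1 (1.67), Chac1 (1.61), Fkbp11 (1.49), Ndufaf5 (1.43), Mfsd2a (1.39), Oat (1.32) and Gstp3 (1.31). The same held, with smaller differences, for Ephx1 (0.93), Aldh18a1 (0.91), Scd1 (1.0), Ndufb8 (0.78), Sdhb (0.77), Eno1 (0.74), Cldn15 (0.77), Ndufa9 (0.75), Aldoa (0.89), Dhcr7 (1.05), Sdhd (0.62), Pkm (0.86) and Uqcrc1 (0.78). The response was lower in Braf p53 for Slc6a19 (-3.10), Ddx60 (-2.79), Slc15a1 (-2.68), Car4 (-2.50), Slc10a2 (-2.22), Muc3 (-2.18), Apob (-1.99), Cdh13 (-1.95), Enpep (-1.93), mt-Nd5 (-1.79), mt-Nd4 (-1.73), mt-Nd2 (-1.71), Tmigd1 (-1.67), mt-Cytb (-1.66) and Apoa1 (-1.51). The interaction of the colon differed from that of the small intestine, by the test of the difference in the joint fit, in 1353 genes. Each value rests on 2 libraries of 1 culture per genotype.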

How the results depend on the processing

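The interaction called 101 higher and 71 lower genes, and 97 with a log2 difference of at least 1, 1312 without a filter on low counts, 391 with at least 10 counts in every library, 1366 with DESeq2, 1 with only the 8 libraries of both cultures and 17 with a replicate block. Without 1 library it called 0 to 279. The off difference (1833 genes) gave 929 with the log2 minimum, 2759 without the filter, 673 with the block and 752 to 1787 without 1 library. The on difference (2653) gave 838, 482 with the block and 666 to 2814 without 1 library. The Braf response (3776) gave 1512 with the log2 minimum and 1961 to 3924 without 1 library, and the Braf p53 response (3360) gave 1332 and 1699 to 3072. The interaction less the p53 response (121) gave 1186 without the filter, 257 with at least 10 counts, 1142 with DESeq2, 51 with the block and 15 to 332 without 1 library. With DESeq2 the small intestine gave 2089 and the difference between tissues 2357. Replicate numbers did not pair the libraries: deviations of same-numbered on and off libraries correlated with -0.013 in Braf, -0.013 in Braf p53 and 0.024 in p53, so the block is a setting only. No named gene that was called changed sign, which the selection of called genes largely fixed. The medians of the EMT, p53 target, goblet, interferon, gastric and Hox lists did change sign without 1 library. Of the named genes, 43 lost their call with the 8 libraries alone, 32 with the block, 15 with the length and GC trend removed, 4 with limma-voom and 7 to 44 without 1 library, while 4 gained one without the filter (Cav1, Olfm4, Sis and Nr2e3), 1 with DESeq2 (Nr2e3) and 1 without Braf p53 on replicate 1 (Sis). A group left with 1 library was assumed to vary like the others. The added removal of a length and GC trend called 126 genes, 46.0% of them higher against 58.7%, 95 of them called without it, and the added omission of mitochondrially encoded genes called 188. At these depths counting error is small, and 2 libraries of 1 culture per genotype limit every value. The causes of these changes were not tested.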

Other observations

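Malat1, Rn7sk, Kcnq1ot1 and the Fos and Jun genes are given as single genes and a family chosen after their values were seen. Malat1, a long RNA of nuclear speckles, was measured at 432 and 621 CPM in Braf off, 1229 and 1236 in Braf on, 515 and 574 in Braf p53 off and 617 and 403 in Braf p53 on. It rose in Braf organoids (log2 1.23, adjusted p = 0.00117) and gave -0.09 in Braf p53 organoids (adjusted p = 0.788), an interaction of -1.32 (SE 0.27, adjusted p = 0.0491). Rn7sk, the RNA that holds the elongation factor P-TEFb inactive, had -1.51 and the imprinted Kcnq1ot1 -1.04. All 7 Fos and Jun genes were below 0 (median -0.68), and Jun (-1.42) and Jund (-1.41) were called. The calls of Malat1, Kcnq1ot1 and Jund were lost with the length and GC trend removed. Jun was measured at 21.2 and 24.6 CPM in Braf off, 20.2 and 22.0 in Braf on, 41.2 and 53.5 in Braf p53 off and 15.2 and 17.4 in Braf p53 on, highest in Braf p53 off, and Jund at 22.3 and 23.2 CPM in Braf off, 41.6 and 54.9 in Braf on, 24.7 and 32.6 in Braf p53 off and 23.3 and 22.6 in Braf p53 on, highest in Braf on.

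Of 37 genes of protein entry into and exit from the endoplasmic reticulum, 31 were above 0 (median 0.42), and Spcs2 (0.88), Sec13 (0.81), Tmed1, Stt3a and Tmed9 were called, of which Stt3a alone stayed called with the length and GC trend removed. Stt3a, a catalytic subunit of the oligosaccharyl transferase, was measured at 338 and 332 CPM in Braf off, 209 and 224 in Braf on, 345 and 309 in Braf p53 off and 327 and 366 in Braf p53 on, lowest in Braf on. Of 37 proteasome subunits 36 were above 0 (median 0.45, 1 called, which was lost with that trend removed), and 25 were higher in Braf p53 on than in Braf on, against 7.77% of all genes. Both families were chosen after their values were seen.

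Protein-coding genes split by exon length had median interactions of 0.16, 0.09, -0.01 and -0.16 in 4 equal groups from the shortest to the longest. The genes called higher numbered 54, 29, 11 and 5 in these groups, and those called lower 19, 11, 9 and 18. Among protein-coding genes the median exon length was 2554 bases for those called higher and 3946 for those called lower, against 4294 for all tested.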
